A study of Homo sapiens with 15 samples.

Results

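The genes described here are the 35 aminoacyl-tRNA synthetase genes listed for this work, 20 for enzymes of the cytosol and 15 for enzymes of the mitochondrion, of 30484 gene names on the array. Their probes were found by gene name. All 35 were present, with 43 probes, and 7 of the genes had more than 1 probe. The brightest probe of each gene was read. It was well above background in both channels on all 15 arrays for all 35 genes, so that every member passed the filter on dim probes.

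The data were 15 dual-color arrays of A549, an established human lung adenocarcinoma cell line. On each array, RNA from cells transfected with a synthetic precursor of a miRNA (Cy5) was set against RNA from cells transfected with an antisense oligo, or antagomir, to the same miRNA (Cy3). The oligos were given at 20 nM, and total RNA was extracted after 24 h. There were 3 arrays each for miR-574-3p, miR-766, miR-181d, miR-629* and miR-565. These had been chosen by the study as X-ray-responsive, and the series asked which mRNAs change between a raised and a lowered level of each. No array held mock-transfected cells, so a ratio does not tell which of both transfections moved a gene. The Cy5 dye was always on the precursor cells, so that for a ratio shared by all arrays dye and treatment cannot be told apart. The labels do not say whether replicates were separate cultures, and p-values then measure only the spread between arrays.

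Aminoacyl-tRNA synthetases join each amino acid to its tRNA before translation. The cytosol and the mitochondrion use largely separate sets encoded by different nuclear genes, although KARS and GARS each serve both compartments. The enzymes fall into class I and class II by the fold of their catalytic domain. In the cytosol, several of them (those for lysine, aspartate, arginine, glutamine, methionine, leucine and isoleucine, and the joint glutamate and proline enzyme EPRS) sit in a multi-synthetase complex held together by the scaffold proteins AIMP1, AIMP2 and EEF1E1. Many cytosolic synthetase genes are targets of ATF4, the transcription factor of the amino acid response, which binds with C/EBP partners to a composite element of the form TGATGNAA.

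Of the transfected miRNAs, RefSeq (GRCh38.p14) gave a mature sequence matching the label for miR-574-3p, at chr4:38868092-38868113 on the plus strand. For miR-181d the 5p arm is shown, at chr19:13874910-13874932 on the plus strand. They are shown to identify the treatments, with the seed (bases 2 to 8) in capitals. The miR-565, miR-629* and miR-766 oligos are named only.
miR-181d (5p arm): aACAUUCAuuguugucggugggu
miR-574-3p: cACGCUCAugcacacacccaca

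RefSeq promoters (GRCh38.p14, 250 bases before to 50 after the gene start) were found for 29 of the 35 genes. The letters TGATGNAA, searched on both strands, were present in 8 of these 29 genes (27.6%), and in 1270 of 35116 single promoters in the table (3.62%). A gene counted when any of its promoters matched, and several of the 29 had 2. The shares are thus of unlike units and cannot be compared directly. The genes with a match were AARS, CARS, GARS, IARS, MARS, NARS, TARS and YARS2. The stretches below are those with the match wholly before the gene start, 5′ to 3′ on the gene's strand, with the match in capitals. AARS lies at chr16:70289675-70289704 (minus strand), GARS at chr7:30594834-30594863 (plus), IARS at chr9:92293698-92293721 (minus) and YARS2 at chr12:32756076-32756105 (minus). In AARS, GARS and IARS the match reads on the opposite strand. The match is a description of the letters and not of a bound site.
AARS: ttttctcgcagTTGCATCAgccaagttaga
GARS: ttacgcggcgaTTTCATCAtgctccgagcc
IARS: ttttcagcgcgTTGCATCAcctcc
YARS2: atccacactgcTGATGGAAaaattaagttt
These 4 genes did not share a direction in the ratios given below. AARS was lower with the precursor on 14 of 15 arrays, YARS2 was higher on 15, IARS was higher on 14, and GARS was higher on 9 and lower on 6.

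The A549 identity of the cells was checked first. All 11 listed A549 and epithelial markers on the array were well above background in both channels on all 15 arrays. Of 14 markers of other cell types, PTPRC, PECAM1, CDH5, DES and COL3A1 were not well above background on any array. The synthetase probes ranged from MARS2 (mitochondrial methionine enzyme), with a median Cy3 signal of 17.1, to CARS2 (mitochondrial cysteine enzyme), with 24670. These signals are processed intensities and are not compared between genes as levels, since each probe binds with its own strength.

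One array stood apart, replicate 1 of miR-565. On it, 52.3% of all tested genes were more than 0.5 from 0 on the log2 scale, against 7.18% to 18% on the other 14 arrays. The SD of the log2 ratios there was 0.963 over all tested genes and 0.64 over the members (0.107 to 0.35 elsewhere), and 12 of the 35 members were beyond 0.5. The departure lay in the Cy5 channel. Quantile-normalized Cy5 signals of 10 members were below those of all 14 other arrays, and those of 21 members were above all others. Of 22951 tested genes with a value on every array, 27.6% were below and 46% above in the same way, against 28.6% and 60% of the members. In the Cy3 channel 0 members were below and 4 above, against 4.12% and 3.51% of these genes. The largest drops in Cy5, as log2 differences from the median of the other arrays, were -1.66 for RARS (arginine), -1.27 for NARS (asparagine) and -1.13 for EPRS. IARS (-0.77), IARS2 (-0.76), NARS2 (-0.66), TARS (-0.61), DARS (-0.60), FARSB (-0.42) and HARS2 (-0.19) made up the rest of the 10. LARS fell by 0.76 but was not below all others, since replicate 1 of miR-181d was lower still. Both channels of these genes can be read in the plot of that array by channel. Probe GC content ran from 35% to 45% in the 10 low members and from 35% to 60% in the 21 high ones, with a median of 43.3% in both. Over all tested genes, GC content and the log2 ratio had a Pearson r of 0.26 on this array. On the other 14 arrays r ran from -0.27 (miR-181d replicate 3) to 0.04 (miR-766 replicate 3). This array thus differed in the sign of r, while a value of like size was seen elsewhere. The part of GC content in the departure was not tested. Counts of called members are given with and without this array, as are the counts of the other gene lists.

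**Figure D1:**
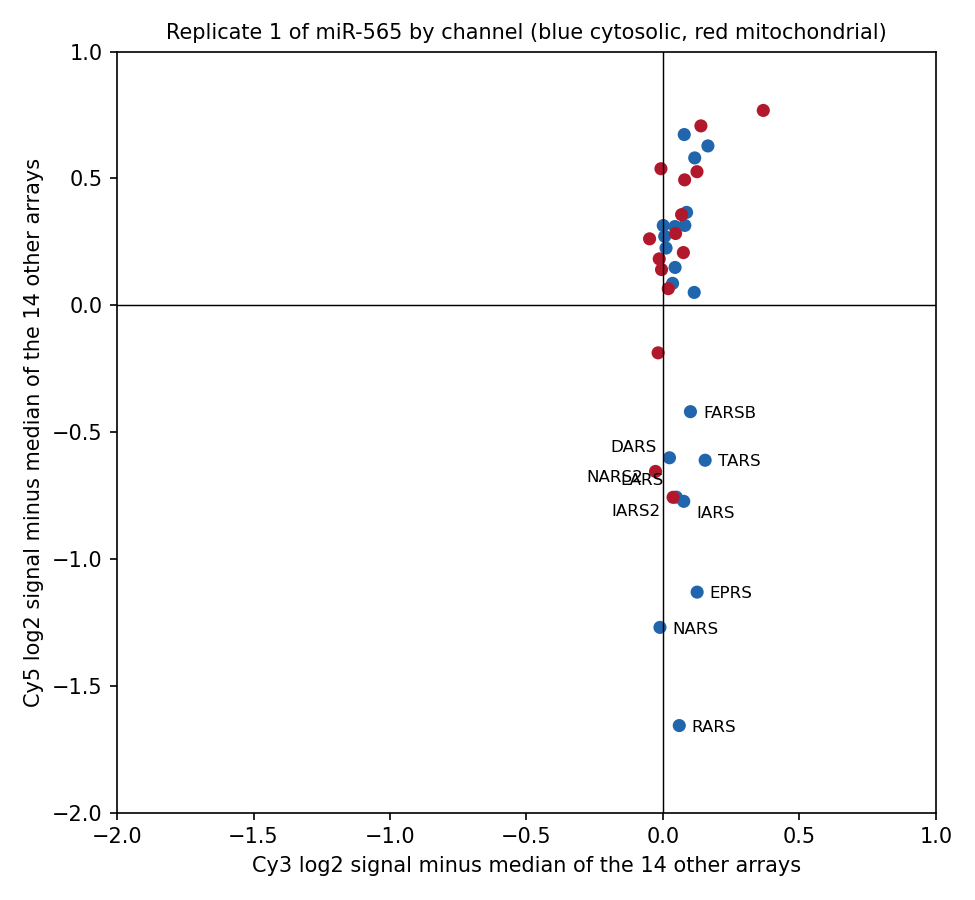
Each point is a synthetase gene on replicate 1 of miR-565. The x axis gives its Cy3 log2 signal and the y axis its Cy5 log2 signal, each quantile-normalized within the dye, minus the median of the other 14 arrays (cytosolic genes blue, mitochondrial red). The points lie near 0 along x and spread from -1.66 (RARS) to 0.77 (MARS2) along y.

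Differences between precursor and antagomir cells were small throughout. They are ratios of bulk RNA, in which fewer expressing cells and less RNA per cell cannot be told apart. No synthetase gene had a mean ratio of 2-fold in either direction for any miRNA. Single values beyond 2-fold were 4 of 525, namely RARS, EPRS and NARS on replicate 1 of miR-565 and LARS on replicate 1 of miR-181d. Every member is drawn by array in the heat map. DARS and NARS2 were below 0 on all 15 arrays, YARS2 and PARS2 were above 0 on all 15, and the other 31 genes had arrays on both sides of 0.

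**Figure D2:**
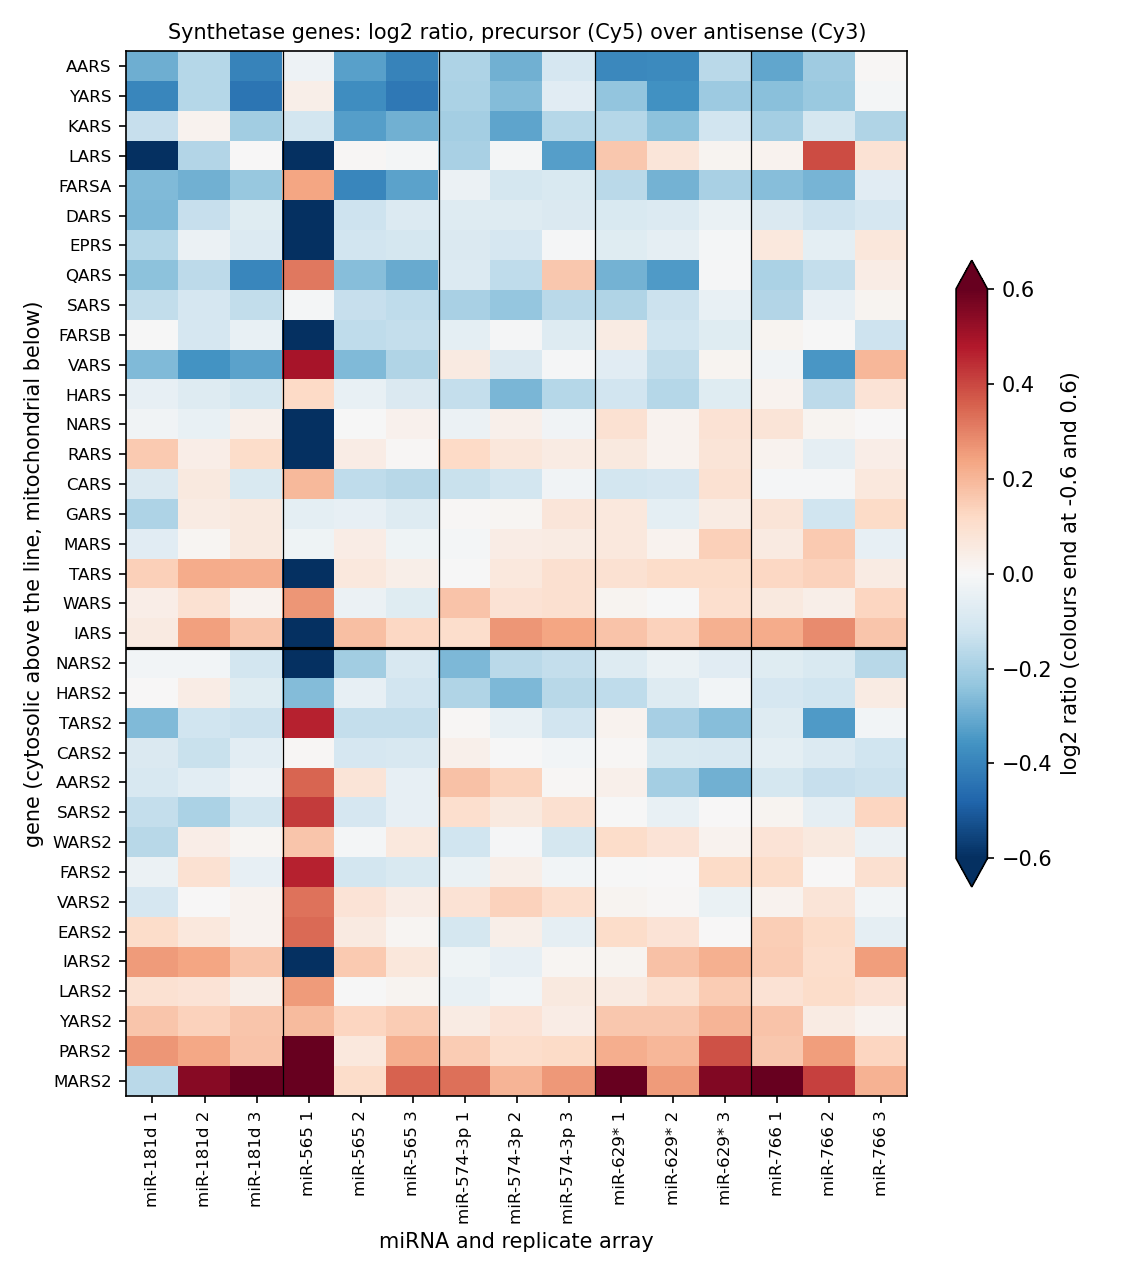
Heat map of the log2 ratio of Cy5 (precursor) over Cy3 (antagomir) for the 35 genes (rows; 20 cytosolic above the black line, 15 mitochondrial below, each ordered by mean ratio) on the 15 arrays (columns, 3 per miRNA). AARS, YARS and KARS are blue (lower with the precursor) on 14 of 15 arrays, YARS2 and PARS2 red (higher) on 15, and replicate 1 of miR-565 departs from the other columns.

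With miR-181d, 2 of the 35 genes were called lower in the precursor cells and 1 higher (limma, Benjamini-Hochberg adjusted p under 0.05 over all tested probes), where 2.69% of the 23005 tested genes were called lower and 3.68% higher. YARS, the cytosolic tyrosine enzyme (probe at NCBI36 chr1:33018386-33018445, minus strand), had log2 ratios of -0.39, -0.17 and -0.44 on replicates 1, 2 and 3. Its fitted log2 ratio was -0.33 (SE 0.0841, adjusted p = 0.0346). AARS, the cytosolic alanine enzyme (probe at chr16:68845377-68845436, minus), had -0.29, -0.17 and -0.40, with a fitted value of -0.29 (SE 0.0795, adjusted p = 0.0495). All 6 of these values lay below 0, and replicate 2 was nearest to it for both genes. YARS2, the mitochondrial tyrosine enzyme, stood on the other side of 0 at 0.17, 0.14 and 0.17, with a fitted value of 0.16 (SE 0.0433, adjusted p = 0.0476). The tyrosine enzymes of both compartments were thus called in opposite directions in the same cells. When replicate 1 of miR-565 was left out, which enters through the shared estimate of spread, 10 genes were lower and 6 higher (against 11.9% and 16.2% of all genes). These included VARS at -0.32 and FARSA at -0.26 among the lower, and PARS2 and IARS2 (both 0.22) and TARS (0.19) among the higher. With any 1 replicate of miR-181d left out, 0 members were called.

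LARS, the cytosolic leucine enzyme, had the widest range of all members. Its ratios with miR-181d were -1.92, -0.18 and 0.00, and its fitted log2 ratio of -0.70 (SE 0.272) was not called (adjusted p = 0.149). On replicate 1 its Cy5 log2 signal was 10.14, against 12.40 and 12.18 on the other replicates, while its Cy3 signal was 12.04, against 12.58 and 12.19. A second LARS probe at chr5:145474059-145480177, nearer the 3′ end than the brightest one at chr5:145527945-145528004 (both minus strand, NCBI36), gave 0.06, 0.08 and 0.10 on the same arrays. The low value was read by only 1 of the LARS probes and on only 1 array.

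With miR-565, 4 genes were called lower and 2 higher, where 4.64% of tested genes were lower and 9.69% higher. DARS (cytosolic aspartate enzyme) had log2 ratios of -0.86, -0.13 and -0.08 and a fitted value of -0.36 (SE 0.105, limma adjusted p = 0.0428). NARS2 (mitochondrial asparagine enzyme) had -0.72, -0.21 and -0.10, with -0.34 (SE 0.0874, adjusted p = 0.027). FARSB (the beta subunit of the cytosolic phenylalanine enzyme) had -0.70, -0.15 and -0.14, with -0.33 (SE 0.0828, adjusted p = 0.0245). In these 3 genes replicate 1 lay far below replicates 2 and 3, although all 9 values were under 0. KARS (lysine enzyme) differed, with the least negative value on replicate 1 (-0.11, -0.33 and -0.29), and its fitted value was -0.24 (SE 0.0581, adjusted p = 0.0213). Among the higher genes, PARS2 (mitochondrial proline enzyme) had 0.87, 0.06 and 0.22, with 0.38 (SE 0.109, adjusted p = 0.0377). A second FARSB probe was at -0.15 and was not called (adjusted p = 0.0558). A second PARS2 probe had a fitted value of 0.22 that was not called (adjusted p = 0.25). YARS2 again lay above 0 on all 3 arrays, at 0.19, 0.13 and 0.15, with 0.16 (SE 0.0433, adjusted p = 0.0355).

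From replicates 2 and 3 of miR-565, 8 genes were lower and 1 higher (against 6.73% and 9.57% of all genes, the pair being assumed to vary like the other groups). KARS (-0.31), FARSB (-0.15), NARS2 (-0.15) and YARS2 (0.14) were still called, whereas DARS and PARS2 were not. YARS (-0.40), AARS (-0.36), FARSA (-0.36), QARS (-0.28) and SARS (-0.14) were called lower only without it. YARS shows the influence of that array, with ratios of 0.03, -0.37 and -0.43.

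With miR-574-3p, 3 genes were called lower and 0 higher, where 2.65% of tested genes were lower and 2.82% higher. KARS had log2 ratios of -0.20, -0.32 and -0.17 (fitted -0.23, SE 0.0581, limma adjusted p = 0.0366). HARS2, a mitochondrial histidine enzyme, had -0.18, -0.27 and -0.17 (fitted -0.21, SE 0.0528, adjusted p = 0.0401). SARS, the cytosolic serine enzyme, had -0.20, -0.23 and -0.16 (fitted -0.20, SE 0.0457, adjusted p = 0.025). In all 3 genes the second replicate was lowest and no array reached 0. HARS, whose gene neighbors HARS2 on chromosome 5, was at -0.20 (adjusted p = 0.0554), while a second HARS probe was at -0.43 and was called (adjusted p = 0.003). That probe was also called lower with miR-181d (-0.26, limma adjusted p = 0.0381) and miR-565 (-0.24, adjusted p = 0.037). For miR-574-3p, on the 14 other arrays than replicate 1 of miR-565, 7 genes were lower and 3 higher (against 11% and 12.1%). KARS, HARS2, SARS, HARS, AARS, YARS and NARS2 were the lower ones. Leaving out any 1 replicate of miR-574-3p left 0 members called.

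With miR-629*, 1 gene was called lower and 1 higher, where 4.51% of tested genes were lower and 6.22% higher. AARS had log2 ratios of -0.39, -0.38 and -0.16 (fitted -0.31, SE 0.0795, limma adjusted p = 0.0277). YARS2 had 0.16, 0.16 and 0.20 (fitted 0.18, SE 0.0433, adjusted p = 0.0241). Both shares of members were below the shares of all genes. Without replicate 1 of miR-565, 8 genes were lower and 6 higher (against 15.1% and 20.9%), with AARS (-0.31), YARS (-0.27), FARSA (-0.21) and QARS (-0.21) lowest and PARS2 highest (0.27). Again 0 members were called with any 1 replicate of miR-629* left out.

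With miR-766, 0 of the 35 genes were called in limma in either direction, where 0.743% of tested genes were lower and 1.56% higher. The smallest adjusted p was 0.176, and 4 genes had an unadjusted p under 0.05. With replicate 1 of miR-565 left out, 5 genes were lower and 5 higher (against 7.73% and 11.8%). FARSA (-0.20), KARS (-0.16), NARS2, DARS and CARS2 were the lower ones, and IARS (0.22), PARS2 (0.18), IARS2 (0.17), TARS and LARS2 the higher. The 3 arrays of miR-766 shared a slide with no other miRNA, so that slide and miRNA cannot be told apart for them.

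The mean of the 5 log2 ratios asks which genes differed between precursor and antagomir cells irrespective of the miRNA. Of the 35 genes, 12 (34.3%) were called lower in the precursor channel and 4 (11.4%) higher, where 18.5% of tested genes were lower and 23.1% higher. The median over the members was -0.06, and over all tested genes 0.01. The counts are given by compartment, and a difference between the compartments was not tested. Of the 20 cytosolic genes, 9 were lower (AARS, YARS, KARS, FARSA, DARS, QARS, SARS, FARSB and HARS) and 0 were higher, with a median of -0.10. Of the 15 mitochondrial genes, 3 were lower (NARS2, HARS2 and CARS2) and 4 were higher (MARS2, PARS2, YARS2 and LARS2), with a median of 0.04. By class, 3 of 17 class I genes were lower and 3 higher, and 9 of 17 class II genes were lower and 1 higher. EPRS was in neither class list. Without replicate 1 of miR-565, 5 class I genes were lower and 7 higher, and 10 class II genes were lower and 2 higher. A difference between the classes was not tested. With the slide as a random block, 0 members were called (correlation within slides 0.73), a value that fell to -0.204 without replicate 1 of miR-565.

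**Figure D3:**
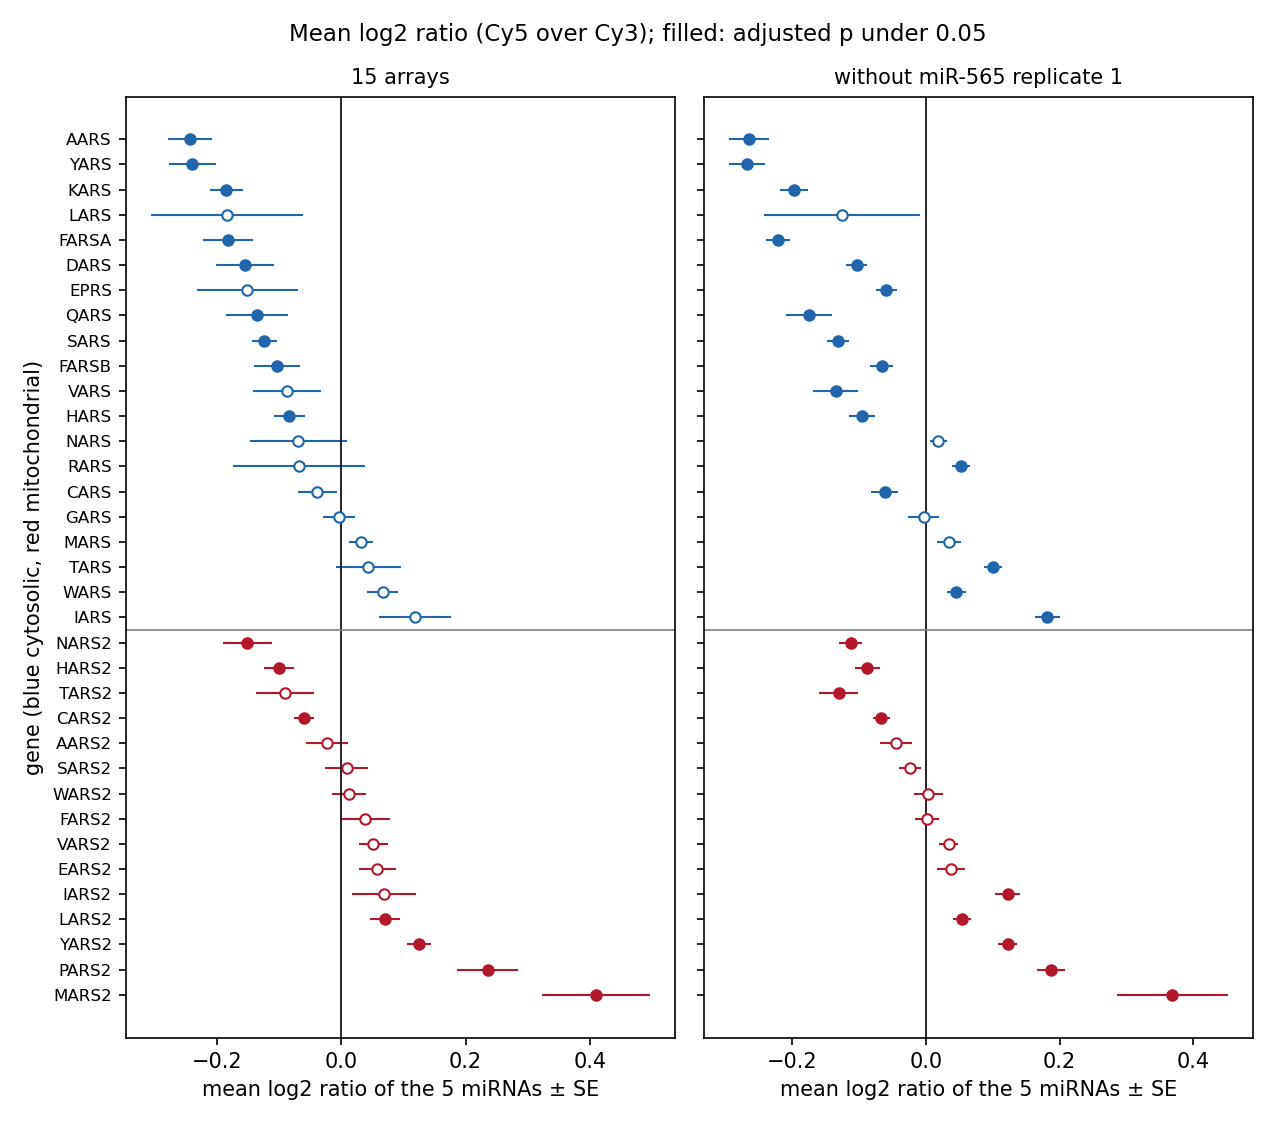
Mean log2 ratio (Cy5 over Cy3) of the 5 miRNAs with its SE (x axis) for each gene (y axis; blue cytosolic, red mitochondrial), from 15 arrays at left and without replicate 1 of miR-565 at right. Filled points had an adjusted p under 0.05. At left 9 blue points are filled below 0 and 0 above, and at right 12 are filled below 0 and 4 above.

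Among the cytosolic genes, AARS had log2 ratios over the 15 arrays from -0.40 to 0.01 with a median of -0.29, and a mean of -0.24 (SE 0.0356, limma adjusted p = 0.00019). YARS ranged from -0.44 to 0.03 with a median of -0.24, and a mean of -0.24 (SE 0.0376, adjusted p = 0.000323). KARS ranged from -0.33 to 0.02 with a median of -0.18, and a mean of -0.18 (SE 0.026, adjusted p = 0.000143). Each of these 3 was above 0 on a single array, which was miR-766 replicate 3 for AARS, miR-565 replicate 1 for YARS and miR-181d replicate 2 for KARS. FARSA, the alpha subunit of the cytosolic phenylalanine enzyme, ranged from -0.39 to 0.24 around a median of -0.23 (mean -0.18, SE 0.0406, adjusted p = 0.00337). Its highest value was again replicate 1 of miR-565, and without that array no value exceeded -0.03. DARS ranged from -0.86 to -0.04 around -0.09 (mean -0.15, SE 0.047, adjusted p = 0.019).

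The other cytosolic genes called lower had smaller means. They were QARS at -0.14 (glutamine), SARS at -0.12, FARSB at -0.10 and HARS at -0.08. A second FARSB probe had fitted values from -0.15 (miR-565) to 0.04 (miR-766) and was not called for any miRNA. The remaining 11 cytosolic genes did not pass the test, with means from -0.18 (LARS) to 0.12 (IARS). Within the complex, KARS, DARS and QARS were called lower, while the means of EPRS, LARS, RARS, MARS and IARS were -0.15, -0.18, -0.07, 0.03 and 0.12. MARS is an example of disagreement between probes. Its brightest probe was not called for any miRNA, while a second probe (NCBI36 chr12:56191888-56192086, plus strand) was at -0.34 with miR-181d (adjusted p = 0.0296), -0.36 with miR-565 (0.0178) and -0.33 with miR-629* (0.0244).

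Among the mitochondrial genes, MARS2 had the largest mean of all members at 0.41 (SE 0.0867, limma adjusted p = 0.00246). Its ratios ran from -0.16 to 0.99 with a median of 0.35. MARS2 was also the dimmest member, and its spread was wide even within a miRNA, with -0.16, 0.54 and 0.99 for miR-181d. PARS2 ranged from 0.06 to 0.87 with a median of 0.20 (mean 0.24, SE 0.0486, adjusted p = 0.00207). Its second probe had arrays on both sides of 0 and was not called for any miRNA. The fitted values of that probe ran from -0.06 (miR-574-3p) to 0.22 (miR-565). YARS2 was the steadiest of the higher genes, from 0.02 to 0.20 with a median of 0.15 (mean 0.13, SE 0.0194, adjusted p = 0.000277). LARS2, the mitochondrial leucine enzyme, had a mean of 0.07. On the lower side, NARS2 ranged from -0.72 to -0.01 around -0.10 (mean -0.15, SE 0.0391, adjusted p = 0.00819). HARS2 (-0.10) and CARS2 (-0.06) were also lower. The remaining 8 mitochondrial genes did not pass the test.

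Without replicate 1 of miR-565 the mean ratio was called for 25 genes, 16 lower and 9 higher, where 26.2% of all tested genes were lower and 31.8% higher. These 16 were 12 cytosolic and 4 mitochondrial genes, and the 9 were 4 cytosolic and 5 mitochondrial genes. IARS, the cytosolic isoleucine enzyme, was at 0.18 (SE 0.0186, limma adjusted p = 3.46e-06), and on the 14 arrays it ranged from 0.05 to 0.28. TARS (0.10), RARS (0.05) and WARS (0.05) were the other cytosolic genes called higher, for threonine, arginine and tryptophan. The leading lower genes moved little, with AARS and YARS at -0.27, FARSA at -0.22 and KARS at -0.20, whereas DARS and NARS2 came to -0.10 and -0.11. PARS2 was at 0.19 and MARS2 at 0.37. The absence of higher cytosolic genes in the fit of all arrays thus depended on that array.

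Probe composition moved with the ratio. Over the 35 members, GC content of the probe and the mean log2 ratio had a Pearson r of -0.42, against -0.10 over the 23005 tested genes with a value. Over the members it was -0.50 without replicate 1 of miR-565. On single arrays r over the members ran from -0.60 (miR-181d replicate 2) to 0.12 (miR-565 replicate 1). Median GC was 45% in the 12 genes called lower and 39.2% in the 4 called higher. The points share arrays and labeling, and the part of GC content in the ratios was not tested.

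Other genes of the same machinery were read from lists. In the mean of the 5, 18.5% of all tested genes were lower and 23.1% higher (26.2% and 31.8% without replicate 1 of miR-565), and the lists are read against these shares. Of the scaffold proteins of the complex, EEF1E1 had a mean log2 ratio of 0.21 (limma adjusted p = 0.00176) and AIMP2 of 0.07 (0.0398), and AIMP1 at -0.16 was not called. The AIMP1 value rested on replicate 1 of miR-565, without which it was -0.01, while EEF1E1 was then at 0.25 and AIMP2 at 0.05. Of 11 listed elongation factors of translation, 3 (27.3%) were lower (TUFM -0.21, EEF1G -0.13 and TSFM -0.07) and 1 (9.09%) was higher (EEF1D 0.26). Without that array 4 were lower and 4 higher.

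Genes of the amino acid response went in both directions. Of 30 in the list, 12 (40%) were called lower in the mean of the 5 and 6 (20%) higher, and 15 and 8 without replicate 1 of miR-565. The share of higher genes was near that of all tested genes (23.1%), while the share of lower genes was above theirs (18.5%). SLC1A5, a transporter of glutamine and other neutral amino acids, was lowest at -0.58 (limma adjusted p = 3.55e-06), and was called lower with each miRNA, from -0.78 (miR-181d) to -0.46 (miR-565). PHGDH, the first enzyme of serine synthesis, was at -0.26. The stress-induced transcription factors ATF3 (0.40) and DDIT3 (0.31) were higher, whereas ATF4 itself was at 0.0015 and was not called (limma adjusted p = 0.962). Of the 13 synthetase genes listed as part of this response, 3 (23.1%; AARS, YARS and SARS) were lower and 0 higher, and without that array 6 were lower and 3 higher. Of 41 tested genes for tRNA transcription and maturation, 8 (19.5%) were lower and 13 (31.7%) higher, with RPP25 (-0.30), POLR3A (-0.28) and MAF1 (-0.27) among the lower and POLR3E (0.27) among the higher. AARSD1, an alanyl editing factor, was the 1 called of 7 amidotransferase and editing genes (-0.12). Without replicate 1 of miR-565, 15 and 17 of the 41 and 2 and 1 of the 7 were lower and higher.

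The cell type markers were read in the same mean. Of the 11 A549 and epithelial markers, 5 (45.5%) were lower (ALDH3A1 -0.51, KRT7 -0.45, KRT8 -0.35, KRT19 and CDH1 both -0.11) and 4 (36.4%) higher (KRT18 0.19, AKR1B10 0.18, EPCAM 0.13 and AKR1C1 0.12). Their summed signal ran from 420700 to 907700 over the arrays in Cy3 and from 456400 to 754600 in Cy5. Of the 14 markers of other cell types, 8 passed the filter on dim probes and VWF was higher (0.40), with summed signals of all 14 from 387.1 to 660.8 in Cy3 and from 454.7 to 1053 in Cy5. VWF was dim, with a median Cy3 signal of 9.71, and well above background in Cy3 on only 9 of 15 arrays. Without replicate 1 of miR-565, 5 of the 11 were lower and 5 higher, and 1 of the 8 was lower and 2 higher. Of all tested genes, 18.5% were lower and 23.1% higher, and 26.2% and 31.8% without that array. The part of the markers in the ratios of the synthetase genes was not tested.

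Whether the ratio of a synthetase gene differed between the miRNAs was tested by an F test, in which a dye bias that every array shares drops out. In limma 0 of the 35 genes were called, where 0.539% of all tested genes were, and the smallest adjusted p was 0.642, with 0 members at an unadjusted p under 0.05. Without replicate 1 of miR-565 the count was also 0. This depended on how slides were treated. With the slide as a random block the ratio F test called 15 members, and with the slide as a fixed block among the 4 miRNAs that shared slides it called 23. In the latter fit, replicate 1 of miR-565 alone linked the first slide to the others. The shares of all tested genes called in these slide fits were not computed, so their counts are not a result about the members.

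Each channel was then compared between the miRNAs within its dye. For Cy3, the antagomir cells, 2 members were called in the F test, where 13.0% of all genes were. For Cy5, the precursor cells, 0 were called, where 0.0782% of all genes were (smallest adjusted p 0.744, 0 members at an unadjusted p under 0.05). IARS2, the mitochondrial isoleucine enzyme, had Cy3 log2 signals of 12.77, 12.73 and 12.72 on the miR-574-3p arrays. The other 12 arrays lay from 12.38 (miR-766) to 12.66 (miR-565), and the F test gave an adjusted p of 0.0124. Against the mean of the other 4 miRNAs it was higher by 0.20 on the log2 scale (SE 0.0399, adjusted p = 0.00311), in a contrast that called 4.17% of all genes lower and 4.33% higher. FARSA was lower in the same cells, at 11.08, 11.06 and 11.04 against 11.12 to 11.37 elsewhere (F test adjusted p = 0.0461). Its difference was -0.17 (SE 0.0417, adjusted p = 0.0175). HARS2 was not called in the F test, but the same contrast called it higher by 0.14 (SE 0.0398, limma adjusted p = 0.0441). IARS2 and FARSA were picked by the F test on these same values. The share of all genes whose groups lie apart in this way was not computed.

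**Figure D4:**
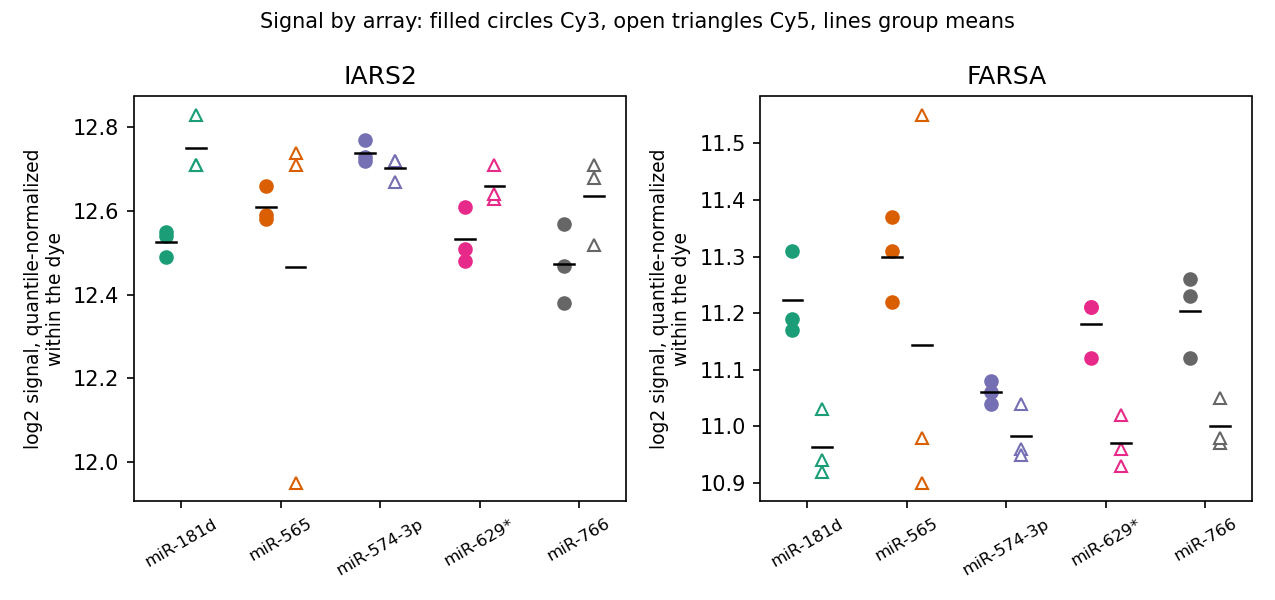
Log2 signal, quantile-normalized within the dye (y axis), of IARS2 at left and FARSA at right by miRNA (x axis, 3 arrays each). Filled circles are Cy3 (antagomir cells), open triangles Cy5 (precursor cells) and lines the group means. The Cy3 circles of miR-574-3p lie above all others for IARS2 (12.72 to 12.77) and below all others for FARSA (11.04 to 11.08), and the triangles of miR-574-3p do not stand apart.

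In the Cy5 channel, the difference of miR-574-3p from the other 4 miRNAs was 0.07 for IARS2 (SE 0.122, limma adjusted p = 0.987) and -0.04 for FARSA (SE 0.1, 0.987). Within slides, where only 1 to 3 arrays stood on a side, the Cy3 log2 signal of IARS2 with miR-565 minus that with miR-574-3p was -0.13, and that with miR-574-3p minus that with miR-629* was 0.19. For FARSA the same differences were 0.23 and -0.14. The miR-574-3p values lay beyond all others, so the signs within slides were fixed in advance and cannot speak to a slide effect. Without replicate 1 of miR-565 IARS2 was still called (F test adjusted p = 0.0221) and FARSA was not (0.106). With the slide as a fixed block 0 members were called in Cy3, and with it as a random block 26, without a computed share of all genes for either.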

How the data were processed

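The authors deposited Agilent Feature Extraction 9.5.3.1 output for 15 dual-color arrays (G4112F). The deposited intensity values are processed signals, background-subtracted and dye-normalized by that software, beside mean and background signals. The deposited log10 ratio equals the authors' series table, and the deposited error of that ratio is a score of the software's error model. The Rosetta Resolver analysis was not used here.

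Log2 ratios (Cy5 over Cy3) of the deposited processed signals were fitted with limma 3.58.1 (R 4.3.3; lmFit, eBayes with intensity trend), with 1 coefficient per miRNA. Control spots (1639 per array) and 2296 outlier-flagged spots were left out. Benjamini-Hochberg adjustment covered the 31345 probes that passed a filter on dim signal (well above background, in Cy3 or Cy5, on 3 or more arrays). Called means an adjusted p under 0.05. Each channel was quantile-normalized within its dye. The number of arrays limits the precision.

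Values on every array (for the mean of the 5, the lowest, median and highest) are given for called members, at most the 8 largest ratios of a comparison and the 6 smallest p of an F test, and for the member of widest range. Of other lists, at most 4 called genes of a list and comparison are named. Members and lists were chosen with earlier results of these data known. Probe positions are those of the files (NCBI36). RefSeq symbols matched 40 of 43 probes. Alternatives comprised normexp (offset 50) with loess, median centring, the series table, error weights, 3 arrays only, no trend, other filters and probe rules, replicate and slide blocks, and each array left out. The fixed slide block and the random block on 14 arrays were added after seeing the data, as were the other lists without replicate 1 of miR-565. Some results on other genes of this machinery are not reported here.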

Additional observations from a re-analysis of the deposited data

Results flagged for a closer look

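For 5 synthetase genes all 3 arrays of 1 miRNA lay above 0 and all 3 of another below it. These were 14.3% of the members, and 16.9% of 22951 tested genes with a value on every array had the same pattern. The largest difference of mean log2 ratio between such miRNAs was 0.344 for LARS (miR-766 at 0.17 against miR-574-3p at -0.18), where a second LARS probe had 0.03 and 0.02. It was 0.233 for SARS2 (miR-574-3p at 0.09 against miR-181d at -0.15) and 0.231 for AARS2 (miR-574-3p at 0.11 against miR-766 at -0.13). It was 0.147 for WARS2 (miR-629* at 0.07 against miR-574-3p at -0.08) and 0.0917 for GARS (miR-574-3p at 0.03 against miR-565 at -0.06). The pairwise differences were not tested, and the F test over the 5 miRNAs called none of these genes (limma adjusted p from 0.642 to 0.843).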

How the results depend on the processing

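No called ratio of a member changed sign under any alternative that was run. Among the counts of called members, leaving out 1 array gave 0 to 16 for miR-181d (main value 3), 8 to 10 for miR-565 (6), 0 to 10 for miR-574-3p (3), 0 to 14 for miR-629* (2), 0 to 10 for miR-766 (0), 13 to 25 for the mean of the 5 (16) and 1 to 3 for the Cy3 F test (2). Each of the highest values but those of miR-565 and the Cy3 F test came without replicate 1 of miR-565. A group of 2 arrays was assumed to vary like the others. Shares of all tested genes were computed only for the main fit and the fit without replicate 1 of miR-565.

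With the slide as a random block (correlation 0.73 for the ratios), 0 members were called for the mean of the 5 and for miR-629*, miR-574-3p and miR-565, and 15, 26 and 13 in the F tests of ratio, Cy3 and Cy5. On 14 arrays (correlation -0.204) that block gave 22 for miR-181d, 16 for miR-565, 14 for miR-574-3p, 21 for miR-629*, 18 for miR-766 and 30 for the mean, with 13, 25 and 11 in the F tests. The fixed slide block over 12 arrays gave 25 for miR-181d, 17 for miR-565, 20 for miR-574-3p and 10 for miR-629*, with 23, 0 and 18 in the F tests. Fitting only the 3 arrays of a miRNA gave 6 for miR-181d, 0 for miR-565, 11 for miR-574-3p, 8 for miR-629* and 1 for miR-766. Without the intensity trend 0 were called for miR-181d and miR-574-3p and 1 in Cy3. For miR-629*, normexp with loess gave 4 and median centring 5. The Cy3 F test gave 1 with normexp and with no filter on dim probes, and 4 with 75th percentile scaling. Without shares of all tested genes under these alternatives, the counts show dependence on processing and are not a result about the members. The causes were not tested.

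Not every same-numbered pair of arrays correlated (r of deviations from -0.395 to 0.51 over 30 pairs, median 0.0567, 13 of them over 0.1, against -0.578 to 0.497 over 60 pairs of different number, median -0.0461, 16 over 0.1), so that the replicate numbers were not taken to pair the samples. The replicate block gave 0 called members for miR-181d and 4 in the Cy3 F test, and kept the other counts within 1.5 times.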
